A study of Rattus norvegicus with 6 samples.

Results

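The choroid plexus is the tissue of the brain ventricles that makes cerebrospinal fluid, and 10 genes known for their expression in its epithelium were followed in rat hippocampal RNA, namely Ttr, Sostdc1, Enpp2, Kcnj13, Kcne2, Clic6, Aqp1, Otx2, Folr1 and Kl. Their probes on the array were found by gene name, after endings that mark predicted or mapped genes were removed, which gave 11 of the 41012 probes of the array. The name CLIC6 was matched without regard to case, and Otx2 has 2 probes. The genes were chosen by the ratios of these same arrays, in particular by their graded values from mild to intense exercise, so that every ratio given for them is a description and no test was made. The levels of Sostdc1, Ttr and one Otx2 probe were higher with intense exercise than in both other groups, Kcnj13 had similar levels with both intensities, and the other members differed less or were too dim to measure.

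The arrays carried RNA of the hippocampus of male Wistar rats that were 11 weeks old at the start. Sedentary control rats (CONT) rested on the treadmill, mild exercise rats (ME) ran at 15 m/min, below the lactate threshold, and intense exercise rats (IE) ran at 40 m/min, above it, 60 min/day and 5 times/week. Running lasted 6 weeks, in which the methods include habituation to the treadmill of 1 week (ME) or 4 weeks (IE), while the labels place the habituation first. Rats that ran badly or were in poor health had been removed, and the methods name IE rats that refused to run among them. Some IE rats were given further foot shocks after the habituation, while ME rats had none after it. The labels and the methods give different times of tissue collection after the last session. RNA from 5 rats was pooled in each group, and each comparison (ME vs CONT, IE vs CONT, IE vs ME) was made on 2 arrays with swapped dyes. The 2 arrays measured the same pools, so n = 1 pool per group, and the spread between rats is not known. The same CONT pool served ME vs CONT and IE vs CONT.

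The epithelium of the choroid plexus is a sheet of cells joined by tight junctions. It moves ions and water from blood into the cerebrospinal fluid and secretes carrier proteins and signalling antagonists into it. The plexus of the lateral ventricle lies along the hippocampus, and the hippocampus proper is made of neurons and glia that do not form such an epithelium. In pooled tissue, fewer cells of a type and less RNA per cell cannot be told apart.

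Ratios are given as log2 of the first-named group over the other, as the mean of the 2 arrays ± SD between them, which is a technical error only. The fold range took its limits of 1.5 and 0.75 from the study, which gives them against CONT. Their use across the 2 arrays of a swap was a choice made here, so counts need not equal those of the study. A probe lay above it when Cy5/Cy3 reached 1.5 with the first-named group in Cy5 and did not exceed 0.75 after the swap, and below it in the opposite case. Each pool was read 4 times, which gives 12 readings per probe, and the software marked each as well above background or not. The readings of a pool are technical repeats. Where they are said to overlap or not between pools, this is description only, as the share of all probes without overlap was not counted. Saturated spots numbered 0 per array, and spots that passed the background mark in both dyes made up 66.5% to 74.4%. Probe positions are those of the array files on rn3.

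The 60-base probes of Ttr and Kcnj13 are shown because these genes carry the main contrast, a graded level with intensity in Ttr and a similar level with both intensities in Kcnj13. The Ttr probe (A_44_P175003) lies at chr18:12434403-12434462 on the plus strand, and the Kcnj13 probe (A_44_P449938) at chr9:86393049-86393108 on the minus strand.
Ttr probe: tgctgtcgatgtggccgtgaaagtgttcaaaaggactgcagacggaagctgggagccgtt
Kcnj13 probe: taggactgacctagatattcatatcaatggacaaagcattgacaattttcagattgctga
The G and C content was 55.0% in the Ttr probe and 35.0% in the Kcnj13 probe, with a median of 43.3% over all 41012 probes. Among the 11 member probes it ranged from 35.0% to 55.0%, and each of the 11 sequences occurs once as a probe on the array.

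The 250 bases before the transcription start in RefSeq (GRCr8) were held for 4 of the 10 genes, Ttr, Kcnj13, Aqp1 and Kl, and are shown for the same pair. The Ttr region is chr18:12218508-12218757 on the plus strand, and the Kcnj13 region is chr9:95518987-95519236 on the minus strand. Capitals mark TATAAA.
Ttr upstream: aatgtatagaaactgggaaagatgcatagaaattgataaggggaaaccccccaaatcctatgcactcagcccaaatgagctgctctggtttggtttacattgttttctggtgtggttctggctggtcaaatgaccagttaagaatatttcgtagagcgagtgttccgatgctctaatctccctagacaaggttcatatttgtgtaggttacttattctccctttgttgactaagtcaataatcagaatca
Kcnj13 upstream: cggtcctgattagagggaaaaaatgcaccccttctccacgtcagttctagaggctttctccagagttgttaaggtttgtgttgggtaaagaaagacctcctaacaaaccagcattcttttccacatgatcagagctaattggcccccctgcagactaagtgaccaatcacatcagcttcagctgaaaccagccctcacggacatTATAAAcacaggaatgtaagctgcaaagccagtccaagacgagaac
Searched on both strands, TATAAA was found in 2 of the 4 upstream regions, starting 46 bases before the start of Kcnj13 and 30 bases before that of Aqp1, and in 12.9% of 33469 upstream regions of the same length. TAATCC, the core letters bound by Otx2-type homeodomains, was in 0 of the 4 and in 6.34% of all, and TGTTTAC, the core of forkhead sites, was in 0 of the 4 and in 3.21% of all. The searched motifs do not overlap each other in the regions shown, and a match or its absence describes these letters in this window only.

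Of the 11 member probes, 4 were above the fold range in ME vs CONT, where 0.547% of all probes were above and 0.44% below it. In IE vs CONT 4 were above, with 0.303% of all probes above and 0.364% below, and in IE vs ME 4 were above, with 0.18% of all probes above and 0.88% below. None of the 11 was below the range in any comparison. Since the genes were chosen by these ratios, nothing is read from the counts. Ttr and Sostdc1 were above the range in all 3 comparisons, Kcnj13 in both comparisons against CONT, one Otx2 probe in both comparisons of IE, Clic6 in IE vs ME, and Kl in ME vs CONT, where its spots were not well above background in either pool.

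**Figure D1:**
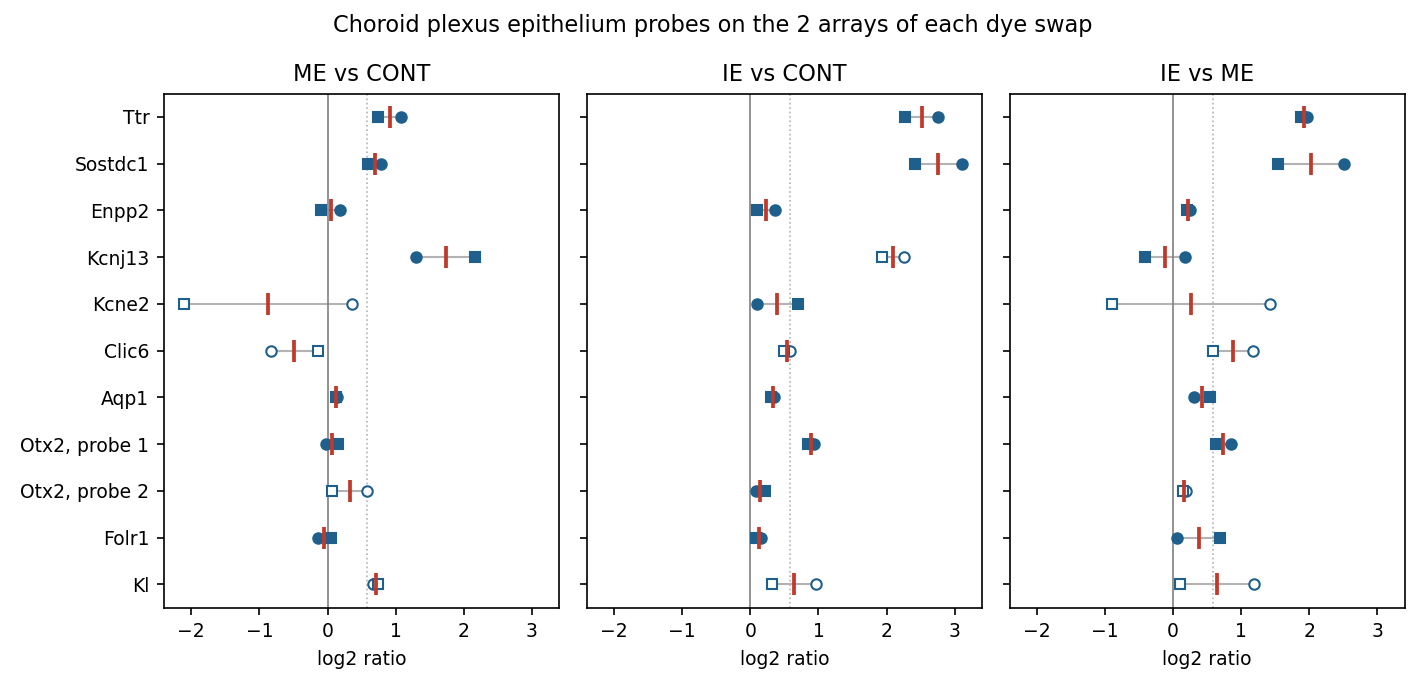
Log2 ratio (x axis) of the 11 member probes (y axis) on array 1 (circle) and array 2 (square) of each dye swap, with their mean as a red bar; filled symbols mark probes that passed the background mark in every reading of that comparison, open symbols those that did not, and the dotted line is a ratio of 1.5. Ttr and Sostdc1 lie to the right in all 3 panels, furthest in IE vs CONT (2.51 and 2.76), while Kcnj13 lies near 0 in IE vs ME (-0.12).

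The median log2 ratio of the 11 member probes was 0.13 in ME vs CONT, 0.54 in IE vs CONT and 0.42 in IE vs ME, where the medians of all probes were 0.0, 0.0 and -0.0016. In IE vs CONT the ratios of the members ran from 0.12 to 2.76, and 11 of 11 were above 0 on both arrays, compared with 5545 of 40957 probes of the whole array. In ME vs CONT the range was -0.87, for the dim probe of Kcne2, to 1.73. There 6 of 11 were above 0 on both arrays, compared with 5242 of 40922. These counts include probes not well above background, such as that of Kl. The genes were chosen by these ratios, so nothing is read from the counts. In the plot of member ratios the IE vs CONT values therefore all lie to the right of 0, while those of ME vs CONT scatter to both sides. For the 6 member probes that were well above background in all 12 readings, the medians were 0.099 in ME vs CONT, 0.61 in IE vs CONT and 0.58 in IE vs ME.

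Brightness sets how precisely a ratio is measured, and it is given as a percentile among all probes for that purpose alone. Enpp2 (88.9) and Ttr (83.5) were in the upper part of the array, and Sostdc1 (58.1), Folr1 (51.3), the brighter Otx2 probe (50.2), Aqp1 (44.9) and Kcnj13 (44.4) were in its middle. The dimmer Otx2 probe (31.6), Clic6 (28.3), Kcne2 (23.5) and Kl (16.5) were well above background in 10, 6, 6 and 3 of their 12 readings.

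Among the secreted and carrier proteins, Ttr encodes transthyretin, which carries thyroxine and the retinol-binding protein in blood and cerebrospinal fluid. On the slide with CONT, its processed signals were 376, 423, 489 and 611 in the 4 CONT readings, 798 and 709 in ME, and 3313 and 2943 in IE. On the slide of IE vs ME they were 997 and 1124 in ME and 3912.5 and 4113 in IE. The pools did not overlap on either slide, and IE was highest on both. The ratio was 1.08 and 0.74 on the arrays of ME vs CONT (0.91 ± 0.24), 2.76 and 2.27 on those of IE vs CONT (2.51 ± 0.35), and 1.97 and 1.87 on those of IE vs ME (1.92 ± 0.071). As linear ratios the means were 1.88-fold, 5.71-fold and 3.79-fold.

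Sostdc1 encodes a secreted antagonist of BMP and Wnt signalling, and its probe (A_42_P575104) lies at chr6:55073434-55073493. Its signals on the slide with CONT were 52.9, 63.7, 80.9 and 91.8 in CONT, 110.2 and 122 in ME, and 457 and 489 in IE. On the other slide they were 52.4 and 92.4 in ME and 297 and 269.8 in IE. The IE readings stood apart from the rest on both slides, and the ME readings were above those of CONT on the slide that held both. The ratio was 0.79 and 0.59 in ME vs CONT (0.69 ± 0.14), 3.11 and 2.41 in IE vs CONT (2.76 ± 0.49), and 2.50 and 1.55 in IE vs ME (2.02 ± 0.68). With normexp background correction and loess, an alternative way to process the raw signals, the Sostdc1 ratio was 0.26 in ME vs CONT, inside the fold range. Under that setting it was 1.77 in IE vs CONT and 1.36 in IE vs ME, where Ttr had 2.33 and 1.86, so that the order of the 2 genes turned.

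Enpp2 encodes autotaxin, a secreted lysophospholipase D, and is also known from oligodendrocytes. Its probe spans 5394 bases of chromosome 7 (A_44_P341075, chr7:91330659-91336052, minus strand) and so crosses an intron. The signals were 2059 to 2334 in CONT, 2335 and 2165 in ME, and 2790 and 2506 in IE on the slide with CONT. The pools of CONT and ME overlapped, and both IE readings were above them. The ratio was 0.043 ± 0.20 in ME vs CONT, 0.23 ± 0.19 in IE vs CONT and 0.23 ± 0.037 in IE vs ME, all within the fold range. The 12 oligodendrocyte probes had a median of 0.044 in IE vs CONT.

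**Figure D2:**
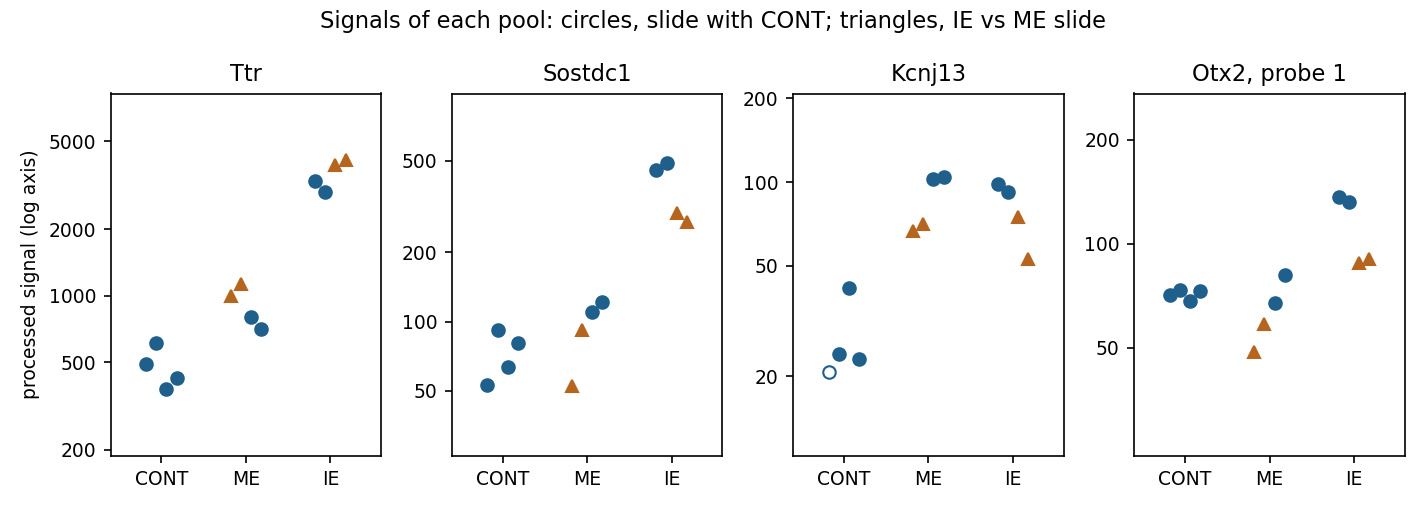
Processed signal (log axis, arbitrary units) of Ttr, Sostdc1, Kcnj13 and the brighter Otx2 probe in each reading of the CONT, ME and IE pools (x axis); circles are the slide with CONT, triangles the IE vs ME slide, and the open symbol is a reading not well above background. IE stands apart for Ttr, Sostdc1 and Otx2, and for Kcnj13 the ME (102 and 104) and IE (98.7 and 91.8) circles lie together above CONT.

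Among the channels, Kcnj13 encodes Kir7.1, an inward rectifier potassium channel of the apical membrane. Its signals on the slide with CONT were 41.7, 23.1, 20.8 and 24.1 in CONT, of which the third was not well above background, 102 and 104 in ME, and 98.7 and 91.8 in IE. On the other slide they were 66.45 and 70.5 in ME and 75.0 and 52.7 in IE. The exercise pools did not overlap with CONT, and they overlapped with each other on the slide of IE vs ME. The ratio was 1.30 and 2.17 in ME vs CONT (1.73 ± 0.62), 2.25 and 1.93 in IE vs CONT (2.09 ± 0.23), and 0.17 and -0.42 in IE vs ME (-0.12 ± 0.42). Kcnj13 thus had no graded values, in contrast to Ttr and Sostdc1, and the difference between the intensities was smaller than the spread between the 2 arrays. With normexp and loess the ratios were 0.44 in ME vs CONT, inside the fold range, and 0.65 in IE vs CONT, above it.

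Kcne2 and Clic6 lie near each other on chromosome 11 (A_44_P414582 at chr11:32345809-32345868 and A_44_P449623 at chr11:32615187-32615246, both on the plus strand). Kcne2 encodes a small accessory subunit of potassium channels. It was well above background in 3 of 4 CONT, 1 of 4 ME and 2 of 4 IE readings, and its signals in CONT ran from 11.4 to 100.1. The arrays of ME vs CONT gave 0.36 and -2.10, but on neither of them were both pools well above background. Those of IE vs CONT gave 0.10 and 0.70, and no ratio is given for IE vs ME because both pools were below background there. The spread between the arrays was larger than the mean in ME vs CONT and in IE vs CONT. Clic6 encodes a member of the chloride intracellular channel family and was well above background in 1 of 4 CONT, 1 of 4 ME and 4 of 4 IE readings. Its signals on the slide of IE vs ME were 17.9 and 29.8 in ME and 40.3 and 44.55 in IE. The IE readings were above those of ME there, with ratios of 1.17 and 0.58 (0.88 ± 0.42), and ME was well above background on 1 of the 2 arrays. In IE vs CONT the ratios were 0.58 and 0.49 (0.54 ± 0.067), with CONT well above background on 1 of the 2 arrays, and in ME vs CONT both pools were below background.

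Aqp1 encodes the water channel aquaporin-1. It is printed as 10 spots on each array (A_44_P299247, chr4:84396592-84396651), which gives the technical spread of its ratio within an array. The ratio was 0.13 and 0.13 in ME vs CONT (0.13 ± 0.0031), 0.35 and 0.30 in IE vs CONT (0.33 ± 0.036), and 0.30 and 0.54 in IE vs ME (0.42 ± 0.17). After outlier spots were left out, 9 of 9 and 8 of 8 spots were above 0 on the arrays of IE vs CONT and 8 of 8 and 9 of 9 on those of IE vs ME. In ME vs CONT 7 of 8 and 8 of 10 spots were above 0, and the SD between spots was 0.22 and 0.14, as large as or larger than the ratio. Aqp1 was within the fold range in each comparison, and with normexp and loess its ratio was 0.15 in IE vs CONT.

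Otx2 encodes a homeodomain transcription factor that is needed for the formation of the choroid plexus, and its probes lie on the minus strand of chromosome 15. The brighter one (A_44_P561510, chr15:24639154-24639213) had signals of 68.3, 72.9, 71.15 and 73.7 in CONT, 67.3 and 81.4 in ME, and 136 and 133 in IE on the slide with CONT. On the other slide it had 48.7 and 58.5 in ME and 87.9 and 90.2 in IE. IE stood apart on both slides, while CONT and ME overlapped. The ratio was -0.021 and 0.16 in ME vs CONT (0.069 ± 0.13), 0.94 and 0.85 in IE vs CONT (0.89 ± 0.065), and 0.85 and 0.63 in IE vs ME (0.74 ± 0.16). With normexp and loess it was 0.46 in IE vs CONT and 0.28 in IE vs ME, both inside the fold range.

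The dimmer Otx2 probe (A_44_P416824, chr15:24639817-24639876) did not share these values. Its ratio was 0.58 and 0.063 in ME vs CONT (0.32 ± 0.37), 0.087 and 0.21 in IE vs CONT (0.15 ± 0.087), and 0.18 and 0.15 in IE vs ME (0.16 ± 0.025). The 2 probes of Otx2 therefore disagreed in IE vs CONT by more than the SD of either, and their mean is not given.

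Folr1 encodes the folate receptor alpha, which moves folate into the cerebrospinal fluid (A_43_P13199, chr1:159395122-159395181, minus strand). Its ratio was -0.14 and 0.045 in ME vs CONT (-0.045 ± 0.13), 0.16 and 0.083 in IE vs CONT (0.12 ± 0.054), and 0.059 and 0.69 in IE vs ME (0.38 ± 0.45). All of its 12 readings were well above background, and it had the lowest IE vs CONT ratio of the 11 probes. Kl encodes klotho, a co-receptor for a fibroblast growth factor hormone (A_43_P12558, chr12:3732725-3732784, minus strand). It was well above background in 1 of 4 readings of each pool, and its signals lay between 3.13 and 18.9. In ME vs CONT no reading was well above background, so that no ratio is given although the spots passed the fold range. In IE vs CONT and in IE vs ME there was no array on which both pools were well above background, and no ratio is given there either.

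The direct arrays of IE vs ME lie on another slide and were read with a later version of the software, and they can be set beside the difference of the ratios against CONT. For Ttr the difference was 1.60 and the direct ratio 1.92, for Sostdc1 2.07 and 2.02, and for the brighter Otx2 probe 0.82 and 0.74. These 3 probes gave similar ratios of IE to ME by both routes. For Kcnj13 the difference was 0.36 and the direct ratio -0.12, and for the dimmer Otx2 probe they were -0.17 and 0.16. In both cases the routes differ in sign. Enpp2 had 0.19 and 0.23, Aqp1 0.20 and 0.42, and Folr1 0.17 and 0.38. Both routes use the same ME and IE pools and are technical repeats.

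**Figure D3:**
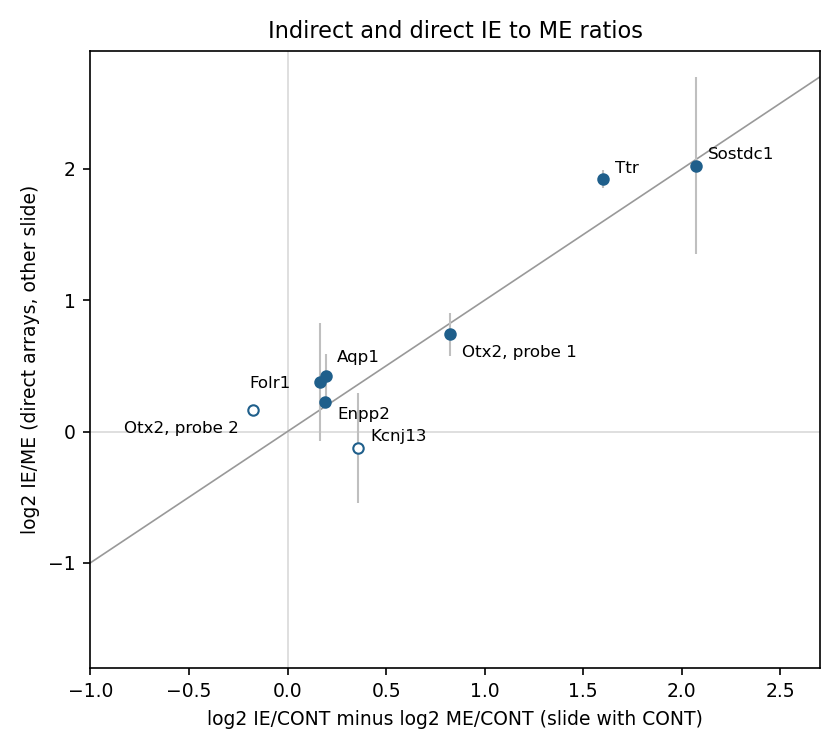
Direct log2 ratio of IE to ME (y axis, mean ± SD of the 2 arrays of the swap) against log2 IE/CONT minus log2 ME/CONT (x axis) for the member probes other than Kcne2, Clic6 and Kl, for which both pools were below background in 1 comparison; the line is equality, and open symbols are probes not well above background in all 12 readings. Sostdc1 (2.07 and 2.02) and the brighter Otx2 probe, labelled probe 1 (0.82 and 0.74), lie near the line, and Ttr lies above it (1.60 and 1.92).

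Other genes known from the choroid plexus epithelium were taken from a list of 51, of which 45 were on the array with 57 probes. Their median ratio was 0.015 in ME vs CONT, 0.014 in IE vs CONT and 0.023 in IE vs ME, close to those of all probes (0.0, 0.0 and -0.0016). Above the fold range were 1, 3 and 1 of the 57, and below it 0, 0 and 1. Of the 57 probes, 30 were well above background in all 12 readings and 3 in none, among them that of Cldn2, which encodes a claudin of this epithelium. Their summed signal on the slide with CONT was 11465 to 12242 in CONT, 11743 to 12420 in ME and 12474 to 12489 in IE, and that of the 11 members was 2772 to 3440 in CONT, 3402 to 3575 in ME and 6529 to 7147 in IE. The values in IE did not overlap with those of CONT in either list, by a small margin in the first. The same held, with IE higher, for the lists of oligodendrocytes, ependymal cells, and thalamus and habenula described below. It also held, with IE lower, for those of meninges and red blood cells. Nothing particular to choroid plexus genes is therefore read from it.

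The probes above the range in IE vs CONT were those of Mfrp, Tmem27 and Steap1. Tmem27, which encodes collectrin, had signals of 6.82 and 7.72 in CONT and 32.4 and 29.05 in IE, and CONT was not well above background. IE was at least 2.41-fold higher than CONT, a bound that sets CONT to the lowest signal found well above background on its arrays. Mfrp, which encodes a frizzled-related membrane protein, had signals of 3.89 and 1.85 in CONT and 10.3 and 14.4 in IE. It was well above background in IE on 1 of the 2 arrays, and no fold is given. Steap1, of a family of metalloreductases, had 0.90 and 0.61 (0.76 ± 0.21) in IE vs CONT and was well above background on both arrays. In IE vs ME its arrays gave 1.49, where ME was not well above background, and -0.11.

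Of the ion transporters, Slc12a2 had -0.24 ± 0.066 at one probe and -0.075 ± 0.018 at its brighter probe in IE vs CONT, and Trpm3 had -0.16 ± 0.25 and -0.012 ± 0.36 at its 2 probes. Car12, a carbonic anhydrase, had 0.10 ± 0.15. Slc4a5, a bicarbonate transporter, was well above background in 2 of 4 CONT and 0 of 4 IE readings, so its ratio is not given. Of the nutrient transport and retinoid genes, Stra6 was low with -0.12 ± 0.36, and the highest and lowest values were those of dim probes of Abca4 and Rdh5, which were well above background in at most 2 of 4 readings of a pool and are given no ratio. Of these measured differences, those of Slc12a2 exceeded the SD between the arrays at both probes. Of the junction and epithelial genes, the probes of Krt18, a keratin of simple epithelia, had 0.26 ± 0.12 and 0.25 ± 0.047 in IE vs CONT, and Cldn3 had 0.069 ± 0.060, with Cldn1 (-0.12 ± 0.051) and Perp (-0.067 ± 0.093) lowest. Krt18 was above the fold range in IE vs ME at 1 of its 2 probes (0.67 ± 0.17), where its ME vs CONT ratio was -0.51 ± 0.16.

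Of the secreted and matrix proteins, Sulf1 had 0.20 ± 0.052 and Bmp6 -0.083 ± 0.22 in IE vs CONT. One of the 2 F5 probes was well above background in 3 of 4 CONT and 3 of 4 IE readings and the probe of Col8a1 in 3 of 4 and 2 of 4, but neither passed on both arrays of IE vs CONT. These arrays gave 1.12 and 0.40 (0.76 ± 0.50) for this F5 probe, within the fold range, and 0.091 and -0.22 (-0.064 ± 0.22) for Col8a1. Clic6 and Kcnj13 among the members did not pass on both arrays of IE vs CONT either. The other, dim F5 probe lacked a ratio on 1 array of ME vs CONT and did not enter the median there. Igfbp2, which binds insulin-like growth factors, had 0.90 ± 0.21 in ME vs CONT, above the range, 0.031 ± 0.39 in IE vs CONT and -0.65 ± 0.12 in IE vs ME, below the range. It was thus highest in ME, unlike Ttr and Sostdc1. The transcription factor genes Msx1 (0.21 ± 0.23) and Lmx1a and the receptor genes Prlr and Htr2c were within the range. Prlr was well above background in 1 of 4 CONT and 0 of 4 IE readings, Lmx1a in 0 of 4 and 1 of 4, and Htr2c in 4 of 4 and 2 of 4, and no ratio is given for them. Ace (0.23 ± 0.018 and 0.25 ± 0.30 at its 2 probes) and Cab39l (-0.0047 ± 0.030) had the lowest ratios of the membrane and other proteins.

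Markers of cells that border the choroid plexus were read in the same way. The 19 probes of the meninges and fibroblast list had a median of 0.85 in ME vs CONT, with 13 above the fold range, -0.011 in IE vs CONT, with 0, and -0.91 in IE vs ME, with 12 below it. Those above the range in ME vs CONT were probes of Col1a1, Col1a2, Col3a1, Ogn, Fmod, Ptgds, Igf2, Aldh1a2, Crabp2, Slc6a13 and Slc13a3, which encode collagens and proteoglycans of connective tissue and proteins of the leptomeninges. In ME vs CONT all 19 passed the background mark in every reading, and their summed signal on the slide with CONT was 22033 to 23188 in CONT, 47144 to 50164 in ME and 21611 to 21930 in IE. The ME sums were far above those of CONT and the IE sums lay just below them, and the part of this list in the ME vs CONT ratios of Ttr, Sostdc1 and Kcnj13 was not tested.

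The 11 probes of ependymal and ciliated cells had medians of -0.17 in ME vs CONT, 0.0023 in IE vs CONT and 0.11 in IE vs ME, with 0 past the fold range in each. Their summed signal on the slide with CONT was 2175 to 2285 in CONT, 1940.5 to 2057 in ME and 2288 to 2350 in IE, which puts ME below the other pools. Endothelial cells and pericytes (10 probes), oligodendrocytes (12), hippocampal neurons (10), red blood cells (4) and thalamus and habenula (7) had IE vs CONT medians of -0.029, 0.044, -0.0004, -0.13 and 0.095, with 0 probes past the range. The mean ratios of the cerebellum list (5 probes, 2 of them well above background in all readings) also differed with the ME pool. Their median was 0.35 in ME vs CONT, with 5 of 5 means above 0, 0.020 in IE vs CONT and -0.56 in IE vs ME, with 0 of 5 means above 0. The 2 arrays of IE vs ME differed in sign for Car8 (-1.06 and 0.30), Zic1 (0.61 and -1.53) and Zic2 (0.60 and -1.98), and those of ME vs CONT for Zic1. Only Pcp2 (-0.59 and -0.53) and Gabra6 were below 0 on both arrays of IE vs ME. The summed signal of this list on the slide with CONT was 334 to 363 in CONT, 459 to 465 in ME and 331 to 390.2 in IE, and its part in the ME vs CONT ratios of the members was not tested. Its Gabra6 was at least 2.78-fold higher in ME than in CONT, where it was not well above background. Of the hippocampal neuron and oligodendrocyte probes, 7 of 10 and 12 of 12 were well above background in all readings, beside 24716 of all 41012 probes. From the neuron list, C1ql2 and Neurod6 were not found on the array. Its Prox1 was well above background in 3 of 4 ME and 3 of 4 IE readings.

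**Figure D4:**
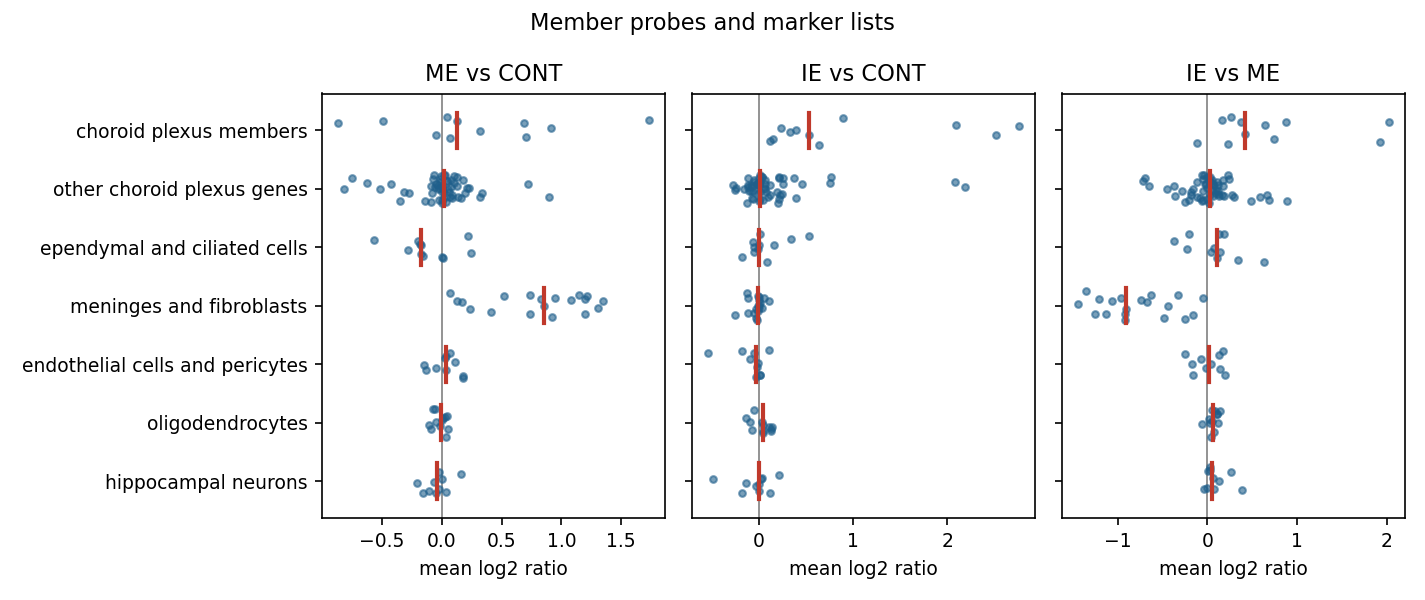
Mean log2 ratio (x axis) of each probe (points, spread vertically for view) of the members and of 6 marker lists (y axis) in the 3 comparisons, with the median as a red bar. The members have medians of 0.13, 0.54 and 0.42, the other choroid plexus genes 0.015, 0.014 and 0.023, and the meninges list 0.85, -0.011 and -0.91; the x axes differ between panels.

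The genes whose pattern over the 6 arrays was most like the median of the 6 bright member probes were sought among other probes well above background in all readings with an IE vs CONT ratio of at least 1.5-fold, which left 5 candidates. By the uncentred correlation over the 6 arrays, the order was AW142560 (0.90), TC526364 (0.83), LOC683753 (0.69), Inhba (0.51) and Csh1l1 (0.45). AW142560, a transcript known by its sequence entry only, had -0.22 ± 0.17 in ME vs CONT, 0.98 ± 0.026 in IE vs CONT and 1.39 ± 0.57 in IE vs ME. Csh1l1, which the present annotation names Prl3d4, had 0.75 ± 0.011, 0.62 ± 0.032 and -0.17 ± 0.27 in the same order. The filter on IE vs CONT fixed that each candidate is high in IE. The arrays share 3 pools, so that the order among the 5 is a description and no resemblance is read from it.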

How the data were processed

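Hippocampal RNA of 3 pools of 5 rats was measured on 6 2-colour Agilent arrays with 60-base probes, as 3 comparisons with swapped dyes. The labels call the arrays of a swap different pools, the methods describe 1 pool per group, and the methods were followed, which leaves 1 replicate per comparison and no test. The authors extracted the spots with Feature Extraction, which per the file headers was version 9.5.3.1 on the slide with CONT and 11.0.1.1 on the IE vs ME slide (the labels name 9.5.3.1). The log10 ratio deposited by the authors is Cy5 over Cy3 after background subtraction and LOWESS dye normalization. The deposited p-value, an output of the software for 2 pools on 1 array, entered an alternative only. The intensity deposited by the authors is the processed signal of each channel and the raw signal with its background. Their value table equals the log10 of the ratio of processed signals, turned to the first-named group on the second array, at 100% of spots (within 0.01 on the log2 scale).

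Control features (1639 of 45018) and outlier spots (92 to 302 per array) were left out, spots of a probe were averaged, and ratios were turned to log2. Older array names on the lists were found through RefSeq accessions (GRCr8), which named 10861 of 41012 probes. Bounds were set on processed signals after Aquantile scaling, and the number of arrays limits the precision. The members and lists were chosen with earlier results of these data known. Named were all members and up to 10 genes most like them. Of the other choroid plexus genes, those past the fold range and the 2 highest and 2 lowest per role in IE vs CONT were named. Of other lists, those past the range on spots well above background were named. Gabra6 and the other cerebellum genes are outside this rule and were named after their values were seen. The alternatives were a software p threshold of 0.01, only probes well above background, 1.5-fold on each array, the mean of a pair, the value table, outlier spots kept, normexp (offset 50) with loess in limma 3.58.1 (R 4.3.3), loess without background subtraction, each array alone, and a joint least-squares fit of the 6 arrays. Matching names with case was added after the data were seen. Turning and range were checked on simulated data. Python 3.11.15, pandas 2.3.3 and numpy 2.4.6 were used.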

Additional observations from a re-analysis of the deposited data

How the results depend on the processing

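No paired analysis was possible because 1 pool stands for each group. Ttr was above the fold range in ME vs CONT, and Ttr and Sostdc1 in both comparisons of IE, under each count rule, processing and array tried. With normexp and loess, and with loess without background subtraction, 1 member probe (Ttr) was above the range in ME vs CONT and 2 in IE vs ME, and 0 other choroid plexus probes in any comparison. Both settings pull the ratios of dim probes toward 0, by the offset in the first and by the background left in the signals in the second. Under these settings the member median was 0.038 and 0.039 in ME vs CONT, 0.15 and 0.14 in IE vs CONT, and 0.21 and 0.18 in IE vs ME. With gene names matched with regard to case, which leaves out Clic6 and was added after seeing the data, it was 0.23, 0.52 and 0.40. The software p threshold left 2 member probes in IE vs ME, and 1 and 0 other choroid plexus probes in IE vs CONT and IE vs ME. With only probes well above background, the member median in IE vs CONT was 0.36 and 1 other choroid plexus probe was above the range there. The mean of a pair gave 2 and 4 other choroid plexus probes in ME vs CONT and IE vs ME, 1.5-fold on each array gave 0 in IE vs ME, and the joint fit gave 4 there. Taken alone, array 1 was held to Cy5/Cy3 of at least 1.5 and array 2, with swapped dyes, to at most 0.75. Other choroid plexus probes that passed on array 1 and array 2 numbered 3 and 7 in ME vs CONT. They numbered 6 and 9 in IE vs CONT and 9 and 9 in IE vs ME. These limits are unlike, so the counts are not compared between the arrays. The member median on each array alone was 0.13 to 0.36 in ME vs CONT and 0.54 to 0.85 in IE vs ME. Array 1 gave the higher median in both. The cause was not tested. Signal over background limits Kcne2, Clic6, Kl and the dimmer Otx2 probe.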
